A study of Homo sapiens with 4 samples.

Results

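The nuclear genes for the subunits of the respiratory chain and ATP synthase were taken from RNA-seq counts by their symbols, which begin with NDUF, SDH, UQCR, COX or ATP5 and follow the subunit naming of complexes I to V. Of 59050 gene symbols counted, 126 matched. These were 81 subunit genes, of which 37 belonged to complex I, 4 to complex II, 8 to complex III, 14 to complex IV and 18 to complex V, and 45 processed pseudogenes, all matched by the ATP5 pattern. The pattern does not take COX4I1, NDUFAB1 or CYC1, and it counts NDUFA4, a protein now placed in complex IV, under complex I. The study set untreated cells (0 h) against cells given doxorubicin, a DNA-damaging anthracycline, at 1 ug/ml (24 h of exposure, meant to raise the p53 protein), with 2 libraries in each group. All 4 libraries are labelled HepG2, a cell line established from a human liver tumour and grown in DMEM with serum, and the groups differ by the drug and by the time (0 h and 24 h), which cannot be told apart. RNA was selected on poly-T beads, reverse transcribed from random hexamers and deposited as read counts per gene. The treatment field of the treated libraries names p53 and miRNA rather than the drug, and the grouping follows the titles and the treatment protocol.

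The respiratory chain moves electrons from NADH, through complex I, and from succinate, through complex II, to ubiquinone, then through complex III and cytochrome c to complex IV, where oxygen is reduced. Complexes I, III and IV pump protons across the inner mitochondrial membrane, and complex V, the ATP synthase, makes ATP from their return. Most subunits are encoded in the nucleus and imported, while a small set of hydrophobic core subunits is encoded in mitochondrial DNA, so both genomes supply complexes I, III, IV and V and the nucleus alone supplies complex II.

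The libraries held between 27572740 and 36272180 counts. Untreated replicate 2 stood apart from the other libraries. It had counts on 31258 genes against 25734 to 27609, its correlation of log2 CPM (counts scaled to a library total of 1000000) with the other untreated replicate was 0.887 across tested genes against 0.988 between the doxorubicin replicates, and its summed level of replication-dependent histone genes was 3310 CPM against 459 to 565. The counts and medians over the members and the fold changes that rest on it are therefore also given without it. That fit has a single untreated library, assumed to vary as the doxorubicin replicates do, so its standard errors and p-values measure the spread of that pair alone. The label HepG2 was checked on 14 hepatocyte markers, whose summed level was 1.35 and 4.26 CPM in the untreated and 17.1 and 19.7 CPM in the doxorubicin libraries, and ALB, the albumin gene that defines hepatocytes, had at most 3 counts in any library. Of the 14, 9 did not pass the filter on low counts. The fibrinogen gene FGG was the highest after doxorubicin, with 6 and 3 counts untreated and 335 and 386 counts treated, and FGB had 0.193 and 0.173 against 3.09 and 2.54 CPM. The albumin gene and the apolipoprotein genes stayed under 0.25 CPM in every library, and the cells are called by their label only. The part of the fibrinogen difference in the results was not tested. The simple epithelium keratins KRT8 and KRT18 were abundant, at 2088 to 4105 CPM and 783 to 1793 CPM. EPCAM, the other simple epithelium marker, did not follow, with at most 0.242 CPM. Fibroblast markers had a summed level of 116 to 155 CPM, muscle markers of 8.66 to 17.0 CPM and squamous or basal markers of 2.84 to 7.90 CPM. The fibroblast sum was mostly COL1A1 and COL3A1, while COL1A2 had at most 2 counts in any library. DCN had 0.469 and 0.623 CPM untreated and 7.69 and 6.85 CPM treated. Of the muscle markers MB was the highest, at 4.92 to 16.6 CPM, and MYH7 had at most 0.208 CPM. The 4 blood markers together stayed under 0.520 CPM.

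Nearly all subunit genes were expressed. Of the 126 matched genes, 76 passed the filter on low counts (filterByExpr of edgeR), and these were 74 subunit genes and the pseudogenes ATP5MC1P4 and ATP5MC2P4. A mean level over 10 CPM was found for 71 of the 74, and the means ran from 0.637 CPM to 1655 CPM. The other 43 pseudogenes did not pass, 23 of the 45 had no count at all, the most counted pseudogene had 131 counts over the 4 libraries, and all 45 together made up 1.78 to 4.85 CPM. The subunit genes that did not pass were COX6A2, COX7A1, COX7B2, COX8C, NDUFA6, NDUFA7 and ATP5MGL, each with at most 5 counts in a library, where 3 counts stood for 0.0827 to 0.109 CPM. NDUFA7 shared 77.9% of its exon bases with another gene on the same strand, and reads of such genes can be lost or split in counting. NDUFV2, at 42.6% shared, was also listed under 1 CPM. NDUFA6 shared none.

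The isoforms of complex IV separated sharply. COX6A1, COX6B1, COX7A2, COX7B and COX8A, the isoforms of most tissues, had 50.8 to 222 CPM in every library. Their heart, muscle or testis counterparts were at or near 0. COX6B2, the testis form of COX6B1, had the highest level of these with 0.358 and 0.658 CPM in the untreated and 0.554 and 0.979 CPM in the doxorubicin libraries. COX7A1, the muscle form of COX7A2, stayed between 0.0346 and 0.145 CPM. COX6A2 had 1 count, COX7B2 had 5 counts and COX8C had 0 counts over the 4 libraries. In each library every isoform of most tissues was above its tissue-specific counterpart.

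Per length (CPM per kilobase of the canonical transcript), the median over complex V was 131 and 142 in the untreated and 109 and 119 in the doxorubicin libraries. For complex IV it was 121, 201, 142 and 117 CPM per kilobase in the same order, and for complex I it was 77.0, 125, 78.2 and 79.2. The highest level per length in the whole set was that of ATP5F1B, the catalytic beta subunit of ATP synthase, with a mean of 941 CPM per kilobase, followed across complexes by NDUFS6, an accessory subunit of complex I, with 685, UQCRH, the hinge protein of complex III, with 460, COX7C of complex IV with 405, and SDHB, the iron-sulfur subunit of complex II, with 130. The lowest means among tested genes were 0.772 for NDUFA3 (complex I), 11.1 for SDHA (II), 15.8 for UQCRB (III), 0.407 for COX6B2 (IV) and 28.2 for ATP5PO (V). By this measure, levels within a complex were therefore far from equal, although its proteins are assembled in fixed ratios. The measure rests on 1 transcript length per gene, such as 8459 bases for UQCRB. SDHA and ATP5PO also share 69.6% and 63.8% of their exon bases with another gene on the same strand.

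The summed level of all matched genes was 10212 and 14496 CPM in untreated replicates 1 and 2, and 9464 and 8667 CPM in doxorubicin replicates 1 and 2. Both doxorubicin libraries lay below both untreated libraries, and untreated replicate 2 lay far above the other 3. In a bulk sample, fewer cells of a type and less RNA per cell cannot be told apart, and CPM gives a share of each library, not an amount per cell. Complex I had 3418 and 5094 CPM untreated and 3377 and 2919 CPM after doxorubicin. Complex V had 4186 and 5407 against 3578 and 3343. For complex III the sums were 1230 and 1926 against 1105 and 1060. In complexes I, II, III and V the doxorubicin sums lay below both untreated sums, and the gap from untreated replicate 1 to the nearest treated library was widest in complex V. Complex II, with 346 and 410 against 334 and 340, differed least from the untreated mean, with a ratio of 0.892. The ratio was lowest in complex III, at 0.686. Complex IV overlapped, with 1032 and 1659 CPM untreated and 1070 and 1006 CPM after doxorubicin.

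**Figure D1:**
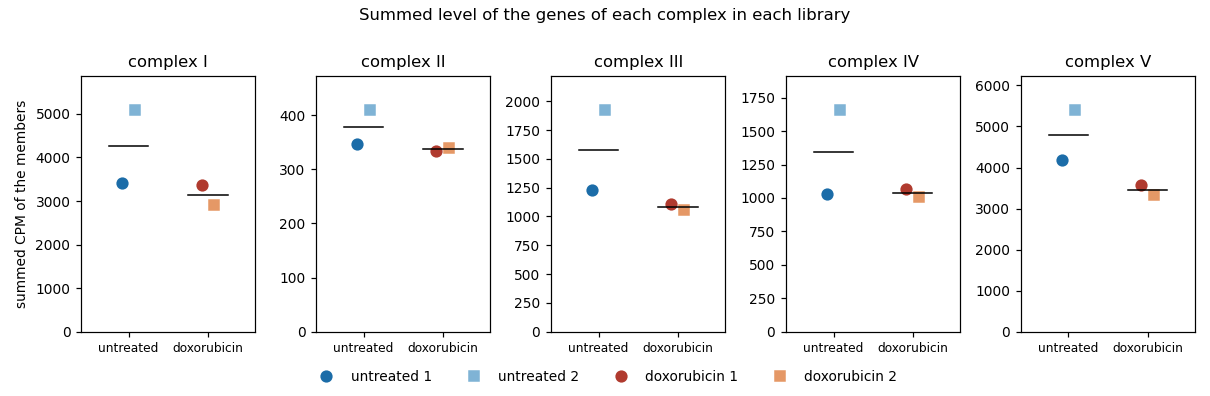
Summed CPM (vertical axis, from 0) of the matched genes of complexes I to V in each of the 4 libraries, with bars at the group means (n = 2 each). Untreated replicate 2 is the highest library in all 5 complexes, and the doxorubicin sums of complex V (3578 and 3343) lie below that of untreated replicate 1 (4186).

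On the log2 scale, the ratio of the doxorubicin mean to the untreated mean was -0.44 for complex I, -0.17 for complex II, -0.54 for complex III, -0.37 for complex IV and -0.47 for complex V. The pooled SD of the libraries around their group means was 0.31, 0.12, 0.32, 0.35 and 0.19 in the same order, so the ratio exceeded it by most in complex V. Against untreated replicate 1 alone, the ratios shrank to -0.12, -0.039, -0.18, 0.0087 and -0.27. In percent of that library, complex V differed by -17.3% and complex IV by 0.607%. Untreated replicate 2 exceeded replicate 1 by 1.42-fold over all matched genes, and by 1.18-fold in complex II to 1.61-fold in complex IV. The distance between the untreated replicates was thus larger than that between untreated replicate 1 and the treated cells in every complex. No test was run on a sum, and with 2 against 2 libraries the smallest exact two-sided permutation p is 0.333.

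Gene by gene, 0 of the 76 tested members passed the thresholds of the edgeR quasi-likelihood test (Benjamini-Hochberg adjusted p under 0.05 and a change of 1 or more on the log2 scale), beside a background of 0.0% of all 17479 genes. DESeq2 and the exact test of edgeR also called 0 members. At an unadjusted p under 0.05 in edgeR, 4 members were lower after doxorubicin, beside a background of 1.73%, and 0 were higher, beside 2.66%. These 4 were ATP5F1B, ATP5MC1 and ATP5MF of complex V and UQCRC1 of complex III. The median log2 fold change of the members was -0.51, with 72 of 76 below 0, while the median over all tested genes was 0.013, with 8606 of 17479 below 0. Without untreated replicate 2, the median of the members was -0.24, with 61 of 76 below 0, beside a median of 0.048 over all genes. In that edgeR fit 12 members had an unadjusted p under 0.05 and were lower, beside a background of 6.83%, but 0 had an adjusted p under 0.05, beside 7.08%. Without untreated replicate 1, by contrast, 56 members were lower at an adjusted p under 0.05 (edgeR), beside a background of 27.6%, and the median was -0.77. At the full thresholds this fit called 23 members, a share of 30.3%, beside a background of 41.0%. Most members thus lay below 0 with either untreated library as the reference, and the size of the difference rested on which was used.

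**Figure D2:**
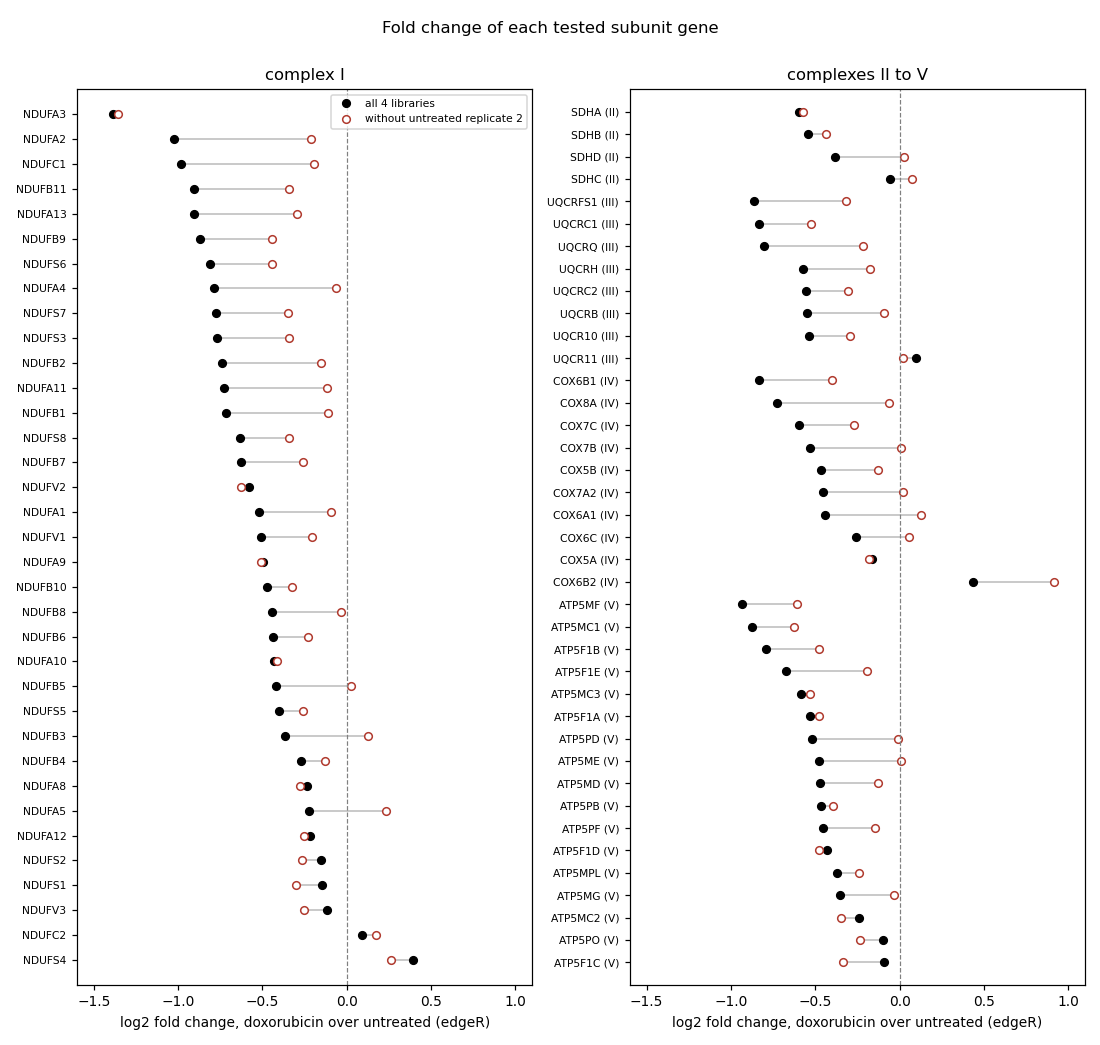
Log2 fold change (horizontal axis, doxorubicin over untreated, edgeR) of each of the 74 tested subunit genes, with all 4 libraries (filled) and without untreated replicate 2 (open). With all libraries 70 of the 74 lie below 0, and without untreated replicate 2 60 of the 74 do.

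The position of the single libraries was also described without a model. In 28 of the 76 members (36.8%) both doxorubicin libraries lay below both untreated libraries in CPM, beside a background of 11.5% of all genes. In 2 members, NDUFS4 and NDUFC2, both doxorubicin libraries lay above both untreated libraries, beside 30.3%. On CPM scaled by TMM factors, which was added after the data were seen, 48 members (63.2%) were lower, beside 17.9%, and 1 was higher, beside 21.3%. These counts also rest on untreated replicate 2. In CPM it was the highest library in 75.0% of members, beside 36.6% of all genes, and the lowest in 9.21%, beside 45.0%. The shares and their backgrounds are thus not a check apart from that library. The choice of scale moved the median of all genes from 0.013 with TMM to 0.17 with library size alone, and that of the members from -0.51 to -0.36. Relative to all genes, the members therefore sat 0.53 lower on either scale. The 28 lower members were spread over the complexes, with 13 of 35 tested in complex I, 2 of 4 in complex II, 3 of 8 in complex III, 2 of 10 in complex IV and 8 of 17 tested subunit genes in complex V.

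In complex I, the NADH dehydrogenase, the 7 tested nuclear core subunits, which carry the flavin, the iron-sulfur clusters and the quinone site, all had a log2 fold change below 0, from -0.77 to -0.15, and all 7 remained below 0 without untreated replicate 2. Of the 28 supernumerary subunits, which surround the core, 26 were below 0 with all libraries and 23 without untreated replicate 2. None of the 35 had an unadjusted p under 0.05 in edgeR with all libraries. NDUFB11 (chrX:47142071-47145466), a membrane arm subunit, was the most highly counted, with 311 and 602 CPM untreated and 302 and 238 CPM after doxorubicin. Its untreated replicates were further apart than replicate 1 was from either treated library, and the log2 fold change of -0.91 (SE 0.41) had an adjusted p of 0.773 (edgeR) and was -0.34 without untreated replicate 2. NDUFA3 (chr19:54102728-54109257), another supernumerary subunit, had the lowest fold change, with 1.02 and 1.04 CPM untreated and 0.495 and 0.363 CPM treated. Its groups did not overlap, but the values rest on 10 to 37 counts a library and 9.54% of its exon bases overlap a gene on the other strand. The log2 fold change of NDUFA3 was -1.39 (SE 0.60) and -1.36 without untreated replicate 2. NDUFS4 (chr5:53560633-53683338), an accessory subunit of the peripheral arm whose loss causes Leigh syndrome, went the other way with 21.3 and 17.1 CPM untreated and 26.3 and 29.9 CPM after doxorubicin. Both treated libraries were above both untreated libraries, and the log2 fold change was 0.39 (SE 0.38, adjusted p 0.798 in edgeR), and 0.26 without untreated replicate 2.

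Complex II, succinate dehydrogenase, is shared by the chain and the citric acid cycle. SDHA (chr5:218303-257082), its flavoprotein, had 34.3 and 34.6 CPM untreated and 27.2 and 23.5 CPM after doxorubicin. Here the untreated replicates lay close together and both treated libraries were below them, and the log2 fold change was -0.60 (SE 0.36) with all libraries and -0.57 (SE 0.25, adjusted p 0.160 in edgeR) without untreated replicate 2. SDHA shares 69.6% of its exon bases with an overlapping gene on the same strand. SDHB was also lower in both treated libraries, with 141 and 159 CPM against 118 and 111 CPM. SDHC (chr1:161314381-161363206), a membrane anchor and the subunit with the most counts, did not follow, with 134 and 156 CPM untreated and 153 and 159 CPM treated. Its groups overlapped, and its log2 fold change of -0.054 (SE 0.29) turned to 0.10 with library size alone and 0.076 without untreated replicate 2.

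In complex III, the cytochrome bc1 complex, the core proteins UQCRC1 and UQCRC2 and the Rieske iron-sulfur protein UQCRFS1 were each lower in both doxorubicin libraries than in both untreated libraries, whereas this held for 0 of the 5 accessory subunits on the CPM scale and for 4 of the 5 on the TMM scale. UQCRC1 (chr3:48599002-48610976) had 470 and 684 CPM untreated and 396 and 324 CPM after doxorubicin. The treated values lay below untreated replicate 1 by less than the distance between the untreated replicates, and the log2 fold change was -0.83 (SE 0.33, unadjusted p 0.0472 and adjusted p 0.773 in edgeR) with all libraries and -0.52 (SE 0.21, adjusted p 0.128) without untreated replicate 2. UQCRFS1 (chr19:29205320-29213151) had 105 and 198 CPM against 88.0 and 98.1 CPM, and its log2 fold change moved from -0.86 to -0.32 without untreated replicate 2. UQCR11 (chr19:1597169-1605473), the smallest accessory subunit, overlapped between the groups with 20.9 and 18.1 CPM against 26.0 and 20.4 CPM.

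Complex IV, cytochrome c oxidase, showed the least difference once untreated replicate 2 was left out, with 5 of 10 tested genes below 0 and a median of -0.027, against 9 of 10 and -0.46 with all libraries. COX7C (chr5:86617928-86620962), a small structural subunit with the most counts in the complex, had 237 and 349 CPM untreated and 215 and 218 CPM treated. The treated replicates were close together and just below untreated replicate 1, and the log2 fold change was -0.59 (SE 0.32) and -0.27 without untreated replicate 2. COX6B1 (chr19:35648323-35658782), which lies on the intermembrane side of the dimer, had 133 and 222 CPM against 121 and 99.8 CPM. Its log2 fold change of -0.84 (SE 0.38) became -0.40 without untreated replicate 2. COX6B2 (chr19:55349306-55354719), at under 1 CPM in every library, overlapped between the groups.

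Complex V carried 3 of the 4 members with an unadjusted p under 0.05 but not the lowest median with all libraries, at -0.47 over 17 subunit genes against -0.56 for complex III and -0.51 for complex I. Without untreated replicate 2 its median of -0.34 was the lowest, against -0.26 for complexes I and III and -0.21 for complex II. With all libraries 17 of the 17 were below 0, and without untreated replicate 2 this was so for 16. No difference between complexes was tested. ATP5F1B (chr12:56638175-56645984) had 1641 and 2391 CPM untreated and 1344 and 1244 CPM after doxorubicin. Both treated libraries were below both untreated ones, with a gap to untreated replicate 1 larger than the distance between the treated replicates. Its log2 fold change was -0.79 (SE 0.30, unadjusted p 0.0407 and adjusted p 0.773 in edgeR), and -0.48 (SE 0.21, adjusted p 0.169) without untreated replicate 2. ATP5F1A, the alpha subunit that forms the F1 hexamer with beta, had 610 and 643 CPM against 495 and 469 CPM, and here the untreated replicates lay close together. ATP5F1C (chr10:7788147-7807815), the gamma subunit that forms the central shaft, had 144 and 95.8 CPM untreated and 121 and 131 CPM treated. Both treated values of ATP5F1C lay between the untreated replicates, so the groups could not be separated, and its log2 fold change was -0.091 (SE 0.34) with all libraries, -0.34 without untreated replicate 2 and 0.067 with library size alone.

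The membrane ring of ATP synthase is built from c subunits that ATP5MC1, ATP5MC2 and ATP5MC3 all encode, with different import sequences and the same mature protein. ATP5MC1 (chr17:48892765-48895871) had 195 and 265 CPM untreated and 154 and 124 CPM treated. Both treated libraries were below both untreated ones, and its log2 fold change was -0.88 (SE 0.33, unadjusted p 0.0424 and adjusted p 0.773 in edgeR). Without untreated replicate 2 it was -0.62 (SE 0.22), with an adjusted p of 0.0596 that was the smallest among the members. Per length, ATP5MC1 made up 38.0% and 48.6% of the c subunit transcripts in untreated cells and 34.1% in each doxorubicin library, while ATP5MC2 made up 49.0% and 38.5% against 54.3% and 52.3%. The share of ATP5MC3 stayed between 11.6% and 13.6%. Per length, the leading transcript was thus ATP5MC2 in every library except untreated replicate 2. This order rests on 1 transcript length per gene, 2587 bases for ATP5MC3 against 632 bases for ATP5MC2. In CPM, ATP5MC3 had 268 and 282 untreated and 210 and 198 treated. ATP5MC2 had 247 and 205 CPM untreated and 240 and 186 CPM treated. On that scale ATP5MC3 led in every library except doxorubicin replicate 1. The pseudogene ATP5MC1P4 (chr3:172828736-172829176) had 0.441 and 2.87 CPM untreated and 0.408 and 0.653 CPM treated, so its log2 fold change of -1.77 (SE 1.03) came from untreated replicate 2 and was 0.10 without it. Reads of near-identical copies can be split in counting, so values of the ATP5MC genes and their pseudogenes are uncertain to that extent. ATP5MF (chr7:99448475-99466186), a small membrane subunit, had 103 and 153 CPM against 83.4 and 65.1 CPM. Its log2 fold change was -0.93 (SE 0.37, unadjusted p 0.0481 in edgeR) and -0.61 (SE 0.23, adjusted p 0.0820) without untreated replicate 2, and 30.1% of its exon bases are shared with the read-through gene ATP5MF-PTCD1.

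**Figure D3:**
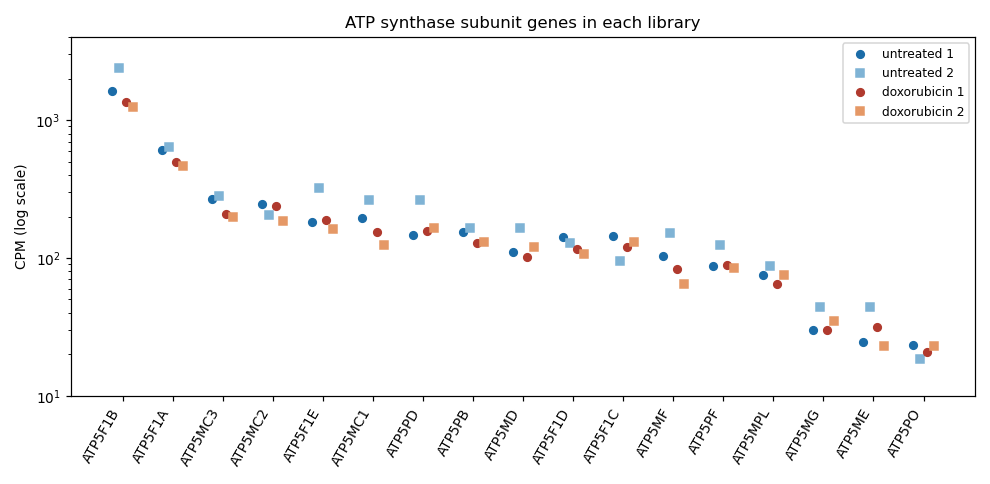
CPM (vertical axis, log scale) of the 17 tested ATP synthase subunit genes in each library, ordered by mean level. ATP5F1B stands highest in every library, from 1244 to 2391 CPM, and in 8 genes both doxorubicin points lie below both untreated points.

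Nuclear genes of the chain are known for promoters with sites of NRF1, ETS factors (NRF2), YY1 and CREB. The promoter windows of RefSeq (GRCh38.p14, 250 bases before to 50 after the start) were searched on both strands for GCGCATGCG (NRF1), CCGGAAG (ETS), AAGATGGCG (YY1) and TGACGTCA (the cyclic AMP response element, CRE), of which none lies within another. A window was found for 66 of the 81 subunit genes, and those of ATP5F1B and ATP5MF were not among them. The NRF1 letters were in 10 of the 66 (15.2%) against 2.10% of 27305 promoters, the ETS letters in 19 (28.8%) against 10.7%, the YY1 letters in 8 (12.1%) against 1.85% and the CRE letters in 5 (7.58%) against 1.98%. At least 1 of the 4 was in 33 of the 66 windows, against 15.2% of all promoters. A match is a description of these letters, not of binding. The 150 bases before the start are shown for ATP5MC1 and UQCRC1, the members with an unadjusted p under 0.05 that had a window. They are also shown for ATP5F1C, whose groups overlapped, and for ATP5PF, which held 3 of the 4 motifs within these bases. SDHB and ATP5ME also held 3 of the 4 in their whole windows. Sequences run 5′ to 3′ on the strand of the gene, with matches in capitals. The start is that of RefSeq and differs from the GENCODE gene positions given above. The bases shown for UQCRC1 and ATP5PF lie inside their GENCODE gene spans. Those of ATP5MC1 and ATP5F1C overlap the GENCODE start.
ATP5MC1 (chr17:48892637-48892786, + strand, CRE letters): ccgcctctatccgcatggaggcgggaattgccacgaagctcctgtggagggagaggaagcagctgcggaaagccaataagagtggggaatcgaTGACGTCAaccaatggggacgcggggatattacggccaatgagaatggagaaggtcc
ATP5F1C (chr10:7788027-7788176, + strand, NRF1 letters): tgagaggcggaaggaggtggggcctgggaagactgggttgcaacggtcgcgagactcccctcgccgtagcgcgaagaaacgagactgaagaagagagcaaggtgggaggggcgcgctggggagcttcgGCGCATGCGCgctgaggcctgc
ATP5PF (chr21:25735055-25735204, - strand, NRF1, YY1 and ETS letters in this order): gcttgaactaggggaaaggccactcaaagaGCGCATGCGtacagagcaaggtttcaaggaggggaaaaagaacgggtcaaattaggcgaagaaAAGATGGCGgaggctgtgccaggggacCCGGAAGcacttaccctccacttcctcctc
UQCRC1 (chr3:48609647-48609796, - strand, no match in these bases): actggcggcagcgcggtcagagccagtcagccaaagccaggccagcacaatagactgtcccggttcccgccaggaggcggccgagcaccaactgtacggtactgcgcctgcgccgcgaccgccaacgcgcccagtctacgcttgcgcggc
In UQCRC1 the YY1 letters lie in the bases after the start, which are not shown. In ATP5F1C the NRF1 letters match on both strands and overlap by all but 1 base at each end. With all libraries, the motifs did not divide the members by fold change. The median log2 fold change was -0.50 in the 31 tested genes with at least 1 of the motifs and -0.53 in the 30 without, and for NRF1 alone it was -0.41 in 10 genes against -0.53 in 51. Without untreated replicate 2 the medians of genes with and without a motif were -0.39 and -0.23 for YY1, -0.41 and -0.23 for CRE, -0.13 and -0.26 for ETS and -0.21 and -0.23 for NRF1. They differed in both directions, the YY1 and CRE sets held 6 and 5 tested genes, and no difference was tested.

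Among the 4 libraries, untreated replicate 2 had the top level in 57 of the 76 members (75.0%), beside a background of 36.6%, and the lowest in 7 (9.21%), beside 45.0%. Those 7 were NDUFS1, NDUFS4, NDUFV3, UQCR11, COX5A, ATP5F1C and ATP5PO. Between the untreated replicates, 7 subunit genes were at least 1 apart on the log2 scale and between the doxorubicin replicates 0 were. The median absolute log2 difference between the untreated replicates was 0.556 in tested subunit genes, beside 0.893 over all genes tested. Between the doxorubicin replicates it was 0.217, beside 0.253. By size alone, the subunit genes were thus no further apart than a typical gene. The extremes of the ratio of untreated replicate 2 to replicate 1 were 1.31 for NDUFA2, a complex I subunit, and -0.59 for ATP5F1C. This difference moved with transcript length. Subunit genes have short transcripts, with a median of 781 bases against 3035 bases over 14611 tested genes. These are the tested genes with a known length and a count in both untreated libraries, and all genes means these in the comparisons by length. In members under 600 bases the median log2 ratio of untreated replicate 2 to replicate 1 was 0.81, with 18 of 19 genes higher, beside 0.51 over all genes of that length. From 600 to 1000 bases it was 0.47, beside 0.44, so members of this length were like other short genes. In the 8 members of 2000 to 4000 bases it was 0.47, beside -0.0032, and in the 8 of 4000 bases or more 0.037, beside -0.59. Spearman's rho with length was -0.34 across the 74 subunit genes and -0.32 across all genes, as a description of genes that share the same libraries. The part of transcript length in the comparison with doxorubicin was not tested. Against untreated replicate 1 alone, the median log2 ratio of the doxorubicin mean in CPM was -0.017, -0.14, -0.082, -0.12 and -0.14 in the members from the shortest to the longest class, beside 0.052, 0.061, 0.14, 0.15 and 0.22 over all genes. The members were thus lower than all genes of their length in each class when untreated replicate 2 was not used.

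**Figure D4:**
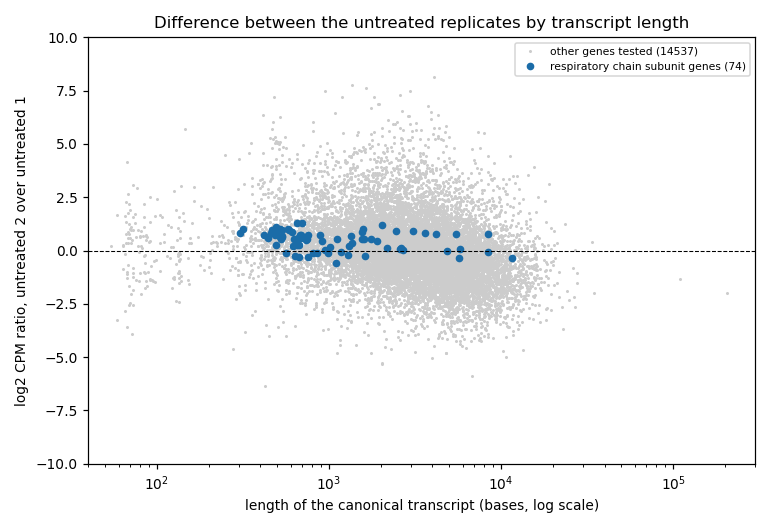
Log2 ratio of CPM in untreated replicate 2 to untreated replicate 1 (vertical axis) by length of the canonical transcript (horizontal axis, log scale). The 74 respiratory chain subunit genes are drawn over the other tested genes with a known length and a count in both untreated libraries. Of the subunit genes 59 lie above 0, and both sets slope down with length (Spearman's rho -0.34 and -0.32).

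The 13 mRNAs of the mitochondrial genome, which encode the partner subunits, took 4.34% and 2.89% of the counts in untreated cells and 3.98% in each doxorubicin library. The nuclear genes took 1.02% and 1.45% against 0.946% and 0.867%. The ratio of the nuclear sum to the mitochondrial sum was 0.236 in untreated replicate 1, 0.238 and 0.218 in the doxorubicin replicates and 0.501 in untreated replicate 2. The balance between the genomes was therefore alike in 3 libraries and shifted in untreated replicate 2. There the nuclear genes were high and 10 of the 13 mitochondrial mRNAs were at their lowest level, beside 45.0% of all genes. The mitochondrial mRNAs had a median log2 fold change of 0.054 with all libraries, with 6 of 13 below 0, beside 8606 of 17479 genes. Without untreated replicate 2 the median was -0.30, with 13 of 13 below 0, beside 8048 of 17479 genes. In that fit their median was near the -0.24 of the nuclear members, beside 0.048 over all genes.

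Other genes of the pathway were followed in lists. None of their genes passed the thresholds of edgeR with all libraries. Of 12 tested subunits and carriers outside the name pattern, 9 were below 0. Among these, named after their values were seen, CYC1, the cytochrome c1 of complex III, had 396 and 472 CPM untreated and 304 and 284 CPM treated, with both treated libraries lower and a log2 fold change of -0.72 (SE 0.28, unadjusted p 0.0477 in edgeR) that was -0.57 without untreated replicate 2. NDUFA4L2, a paralogue of NDUFA4 known for its induction in low oxygen, went the opposite way with 7.06 and 6.03 CPM untreated and 82.8 and 48.8 CPM treated. Its groups lay far apart. The log2 fold change was 3.18 (SE 0.48, unadjusted p 0.000745 and adjusted p 0.773 in edgeR) and 3.09 without untreated replicate 2. Assembly factors had medians of -0.25 for complex I (16 tested, 12 below 0), 0.0095 for complex II (4 tested, 2 below 0), -0.044 for complex III (6 tested, 4 below 0), -0.14 for complex IV (22 tested, 15 below 0) and -0.63 for complex V (4 tested, 3 below 0). Without untreated replicate 2 these medians were -0.20, -0.21, -0.064, -0.071 and -0.28, so those of complexes II, IV and V in particular rested on that library. The only assembly factor with an unadjusted p under 0.05 in edgeR was FMC1 of complex V, at 0.469 and 1.14 CPM untreated and 0.117 and 0.254 CPM treated, with a log2 fold change of -2.26 (SE 0.83) and of -1.51 without untreated replicate 2. Citric acid cycle enzymes had a median of -0.43, with 10 of 13 below 0, and of -0.32 without untreated replicate 2, with 13 of 13 below 0. The 12 transcription factors and coactivators of mitochondrial biogenesis had a median of -0.0044 with 6 below 0. It became -0.092 with 9 below 0 without untreated replicate 2. Untreated replicate 2 was the lowest library in 9 of the 12, beside a background of 45.0% of all genes, and the highest in 2, beside 36.6%. NRF1 itself had 19.3 and 2.67 CPM untreated and 21.4 and 18.2 CPM treated, and PPARGC1A, the coactivator PGC-1alpha, had 16.3 and 3.39 against 17.7 and 21.6 CPM. Both regulators were thus low in the library in which most subunit genes were highest, and the other 3 libraries were close together. TFAM and ESRRA, from the same list, went the other way. TFAM had 53.2 and 90.5 CPM untreated and 45.9 and 58.5 CPM treated, and ESRRA had 130 and 185 against 139 and 131 CPM. A link between these factors and the subunit genes was not tested.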

How the data were processed

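Read counts per gene from RNA-seq of 2 untreated and 2 doxorubicin-treated libraries were used as the authors deposited them, without normalization. FastQC and Cutadapt (filtering), HISAT2 (mapping) and HTSeq (counting) are named by the study or the submitters' processing notes, with hg38. The header names GENCODE release 31, and versions and strand use are not given in the sources used here. Members were matched by symbol pattern, and the members and gene lists were chosen with earlier results of these data known. All genes that passed filterByExpr were fitted in edgeR 4.0.16 (R 4.3.3; TMM, quasi-likelihood F test, group only), with Benjamini-Hochberg adjustment over 17479 genes and the study's thresholds (adjusted p under 0.05, change of 1 or more on the log2 scale). The standard error is the log2 fold change over the square root of F. DESeq2 1.42.0 was an alternative. The fit was tested on simulated data. CPM used the total of each library. Positions, exon overlap and transcript lengths came from GENCODE release 44 (GRCh38), in which 126 of 126 members and 85.4% of tested genes were matched. Promoter sequences came from RefSeq.

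Named genes were, per complex, the tested member with the highest mean CPM and those with the highest and lowest log2 fold change. Added to these were every member with an unadjusted p under 0.05 and the complex IV isoforms. A few others were named for a contrast or as extremes, chosen after their values were seen. Among them were SDHB, ATP5F1A, NDUFA2, ATP5MC2, ATP5MC3, ATP5ME, ATP5PF, NDUFV2, UQCRB, ATP5PO and list genes. The labels do not say whether replicates came from separate cultures, so p-values measure the spread between these libraries. The replicate numbers are shared by the groups, but deviations of same-numbered libraries had a correlation of 0.0219, so no pairing was used.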

Additional observations from a re-analysis of the deposited data

How the results depend on the processing

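The members called ranged from 0 to 23 of 76 when a library was left out. The 23 calls, beside 7173 of 17479 genes in all, came without untreated replicate 1, where the lone untreated library was assumed to vary like the treated ones, and 0 came without each of the others. At an unadjusted p under 0.05 there were 4. RLE factors, library size alone, no filter, DESeq2, the exact test of edgeR and an adjusted p with no fold limit gave 0. With the replicate block, edgeR called 0 members, with a median log2 fold change of -0.49, and 20 genes in all, against 0 without the block, 90 by DESeq2 and 38 by the exact test. The median ran from -0.77 to -0.24 when a library was left out. In the same way, the log2 ratio of the sums ran from -0.69 to -0.12 for complex I, -0.28 to -0.04 for complex II, -0.83 to -0.18 for complex III, -0.68 to 0.01 for complex IV and -0.64 to -0.27 for complex V, each with its upper end without untreated replicate 2, where complex IV reversed to 0.0087. The end for complex II was -0.039. Scaling lowered the ratio in all 5 complexes. For complexes I to V in order it was -0.59, -0.32, -0.70, -0.53 and -0.63 with TMM, and -0.65, -0.38, -0.76, -0.59 and -0.68 with RLE. As a median over tested members it was -0.36, -0.31, -0.40, -0.31 and -0.31.

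Of 144 values for single genes, 126 kept their direction and their side of an adjusted p of 0.05, 11 passed that p only without untreated replicate 1, and 7 reversed. SDHC reversed to 0.10 with library size alone and 0.016 with no filter, and ran from -0.19 to 0.08 when a library was left out, with 0.076 without untreated replicate 2. ATP5F1C reversed to 0.067 with library size alone and ran from -0.34 to 0.21. UQCR11 ran from -0.14 to 0.30, and ATP5MC1P4 from -2.64 to 0.10. The causes were not tested. Depth limits NDUFA3, NDUFV2, COX6B2 and the pseudogenes, which rest on few counts.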
